A study of Mus musculus with 18 samples.

Results

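RNA was sequenced from primary mouse Leydig cells, the androgen-producing cells of the testis, to ask whether the net change caused by hydrogen peroxide (H2O2) followed by fluvastatin (FV) differs once Prdx1 has been knocked down. The comparison described here is the interaction of that combined treatment with the knockdown, (siprdx1+H2O2+FV minus siprdx1) minus (siNC+H2O2+FV minus siNC). It was chosen by treatment label alone and takes in 12 of the 18 libraries of the series, 3 in each of 4 groups. Cells of siprdx1+H2O2+FV were transfected with an siRNA against PRDX1, given 200 µM H2O2 for 30 min and then 5 µM fluvastatin for 6 h. Cells of siprdx1 carried the same siRNA, had no H2O2 and were kept in 0.1% DMSO for the 6 h. The groups siNC+H2O2+FV and siNC were handled in the same 2 ways after transfection with siNC, the siRNA the study set against siprdx1. All 4 groups were therefore transfected, and no group of the series had fluvastatin without H2O2. The labels record DMSO only where fluvastatin was left out, so a net change also spans a difference in vehicle as described. The labels give neither strain nor age of the mice. They call the replicates biological without saying whether they came from separate animals or cultures, so p-values measure only the spread between these libraries.

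Prdx1 encodes peroxiredoxin 1, a thiol peroxidase that breaks down H2O2 and passes oxidising equivalents to partner proteins. Fluvastatin is a statin, which blocks cholesterol synthesis at an early step and so also lowers the supply of the isoprenoid groups that anchor small GTPases to membranes. Among the genes that respond to stress and infection, interferon-stimulated genes form one of the best known programmes. Interferons bind surface receptors, the kinases JAK1 and TYK2 phosphorylate STAT proteins, among them STAT2, and these join IRF9 in a complex that binds an interferon element upstream of antiviral genes. The testicular interstitium holds Leydig cells next to resident macrophages.

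Levels are CPM, read counts relative to the TMM-adjusted size of each library, and an interaction is a difference between 2 log2 fold changes, given with its standard error from edgeR's quasi-likelihood fit. A positive interaction means that the net change was more positive in siprdx1 cultures than in siNC cultures. A gene is said to pass where its p, adjusted by Benjamini-Hochberg over all 16432 genes tested, is below 0.05. Treated means H2O2 followed by fluvastatin, and untreated means neither. The 12 libraries held 15201530 to 23455026 counts. The first principal component held 62.6% of the variance and separated all 6 treated libraries from all 6 untreated ones. The Leydig genes Star, Cyp11a1 and Nr5a1 were detected in all 12 libraries (means of 336 CPM, 723 CPM and 82.2 CPM), whereas Cyp17a1 and Hsd17b3, which complete the route to testosterone, averaged 0.031 CPM and 0.088 CPM. Lyz2, a macrophage gene, averaged 5510 CPM and Col1a1, a fibroblast collagen, 3598 CPM, so the cultures held transcripts of other interstitial cells. In bulk RNA, fewer cells of a type and less RNA per cell cannot be told apart.

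Prdx1 itself checked the labels. It stood at 559.9, 519 and 547 CPM in siprdx1+H2O2+FV, 498, 426 and 468 in siprdx1, 1524, 1528 and 1459.5 in siNC+H2O2+FV and 1345, 1358 and 1279 in siNC. Every siprdx1 library lay below every siNC library of the same treatment, and 36.0% of the siNC level was left after H2O2 and fluvastatin and 35.0% without H2O2. The mean log2 difference over both treatments was -1.50 (exact two-sided permutation test within treatment, p = 0.005, the smallest that the 400 permutations can give). Its interaction was 0.04 ± 0.09 (adjusted p = 0.940) and did not pass. Gm21399 and Gm7204 are near-identical to Prdx1 over part of its transcript, so its counts carry that uncertainty.

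In the interaction, 24 genes were higher and 1 was lower, which is 0.146% and 0.00609% of the genes tested, or 0.152% for both directions together. Of the 24 higher genes, 10 were on a list of interferon-stimulated genes, and Cmpk2 and Iigp1, which that list leaves out, are interferon-inducible as well. The single lower gene was Slc38a2, a transporter of small neutral amino acids. At an unadjusted p below 0.05, 1020 genes (6.21%) differed, 528 of them higher (3.21%) and 492 lower (2.99%). Of the interferon list, 30 members were higher at that level. The net change itself after H2O2 and fluvastatin passed for 25.5% of genes in siprdx1 (2079 up, 2114 down) and for 23% in siNC (1862 up, 1913 down). Of the 24 higher genes, 5 differed between the arms by at least 1 on the log2 scale. Without siprdx1 replicate 1 the interaction count was 16 genes in place of 25. DESeq2 called 46 genes, of which 40 were higher and 6 lower, and 15 were on the interferon list. The test without a low-count filter called 56, of which 43 were higher and 13 lower, again with 15 on that list. Offsets for GC content and transcript length called 80, of which 69 were higher and 11 lower, with 21 on the list. With the replicate number as a block in each siRNA arm 87 genes passed, 72 higher and 15 lower, with 18 on the list; all 25 genes were among them.

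**Figure D1:**
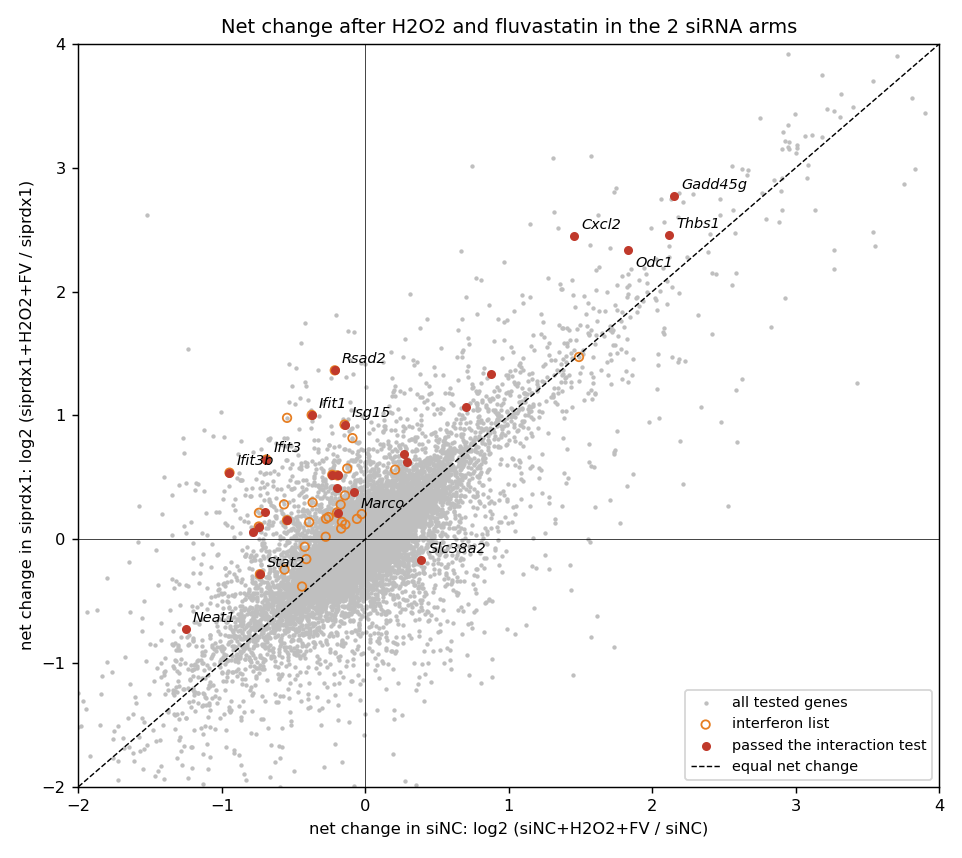
Net change after H2O2 and fluvastatin in siprdx1 (vertical axis, log2) against the same change in siNC (horizontal axis, log2), 1 point per gene tested, with genes that passed the interaction test in red and members of the interferon list ringed. Points on the dashed line have the same change in both arms; 24 red points lie above it and Slc38a2 below it. The axes run from -2 to 4 and leave out 92 genes, none of which passed.

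The net change of the interferon-stimulated genes passed mainly upward in siprdx1 cultures and mainly downward in siNC cultures. In siprdx1 cultures it passed upward for 15 of the 34 tested members and downward for 3, whereas in siNC cultures it passed upward for 1 and downward for 18. The background is 12.7% up and 12.9% down in siprdx1, and 11.3% up and 11.6% down in siNC. Irgm1, Irf7, Ifit1, Ifit3 and Ifit3b were the 5 members that passed upward in siprdx1 and downward in siNC, and the values of 27 of 34 had those signs. The shares above are for each arm alone. How many of all genes show the joint pattern was not counted, so both counts are a description only. The interaction was positive for 33 of 34 members (all but Cxcl10) against 51% of all genes, with a median of 0.47 against 0.0047, and 10 members passed, all higher. Summed over the 34 members, the level was 1228, 1195 and 1200.2 CPM in siprdx1+H2O2+FV, 1014, 1010.4 and 1049 CPM in siprdx1, 806, 805 and 804 CPM in siNC+H2O2+FV and 986, 996 and 970.0 CPM in siNC. The treated libraries of the 2 arms are thus the highest and the lowest of the 12, and the untreated ones lie between them. The median held at 0.47 with offsets for GC content and transcript length. The list was chosen with earlier results of these data known, so its direction is a description.

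Read the other way, siprdx1 cultures exceeded siNC cultures in these genes mainly after treatment. After H2O2 and fluvastatin the knockdown difference passed upward for 28 of 34 members and downward for none, against 1.62% of all genes upward. In all 34 members each siprdx1+H2O2+FV library lay above each siNC+H2O2+FV library, a pattern shown by 10.8% of all genes. In cultures without H2O2 the knockdown difference passed upward for 2 members, Irf7 and the chemokine gene Cxcl10, against 0.657% of all genes, and 7 members lay above siNC in every library, against 7.09%. These 2 knockdown comparisons are the same 4 groups as the interaction, arranged differently. Their counts over all genes moved with single libraries. The treated one called 652 genes (3.97%, with 1.62% higher and 2.35% lower), and 345, 369 and 408 without siprdx1+H2O2+FV replicates 1, 2 and 3, and 408 and 320 without siNC+H2O2+FV replicates 1 and 2. The untreated one called 383 (2.33%), and 232 and 210 without siprdx1 replicates 1 and 3, and 204 without siNC replicate 3. Over the leave-outs, 26 to 29 interferon members passed upward after treatment.

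The promoters of 4 of these genes are shown because these genes carry the interaction and each window holds the interferon element. They are RefSeq windows on GRCm38.p6, 250 bases before to 50 after the annotated start, 5′ to 3′ on the gene's strand, with each match to GAAANNGAAA on either strand in capitals. Overlapping matches run together.
Ifit3 promoter, chr19:34583279-34583578, plus strand: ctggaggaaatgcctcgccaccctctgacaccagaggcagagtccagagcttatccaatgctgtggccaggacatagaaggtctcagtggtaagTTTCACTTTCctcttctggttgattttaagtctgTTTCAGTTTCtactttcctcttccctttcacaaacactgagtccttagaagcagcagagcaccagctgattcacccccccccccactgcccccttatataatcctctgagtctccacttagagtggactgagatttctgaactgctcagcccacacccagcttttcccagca
Ifit1 promoter, chr19:34640639-34640938, plus strand: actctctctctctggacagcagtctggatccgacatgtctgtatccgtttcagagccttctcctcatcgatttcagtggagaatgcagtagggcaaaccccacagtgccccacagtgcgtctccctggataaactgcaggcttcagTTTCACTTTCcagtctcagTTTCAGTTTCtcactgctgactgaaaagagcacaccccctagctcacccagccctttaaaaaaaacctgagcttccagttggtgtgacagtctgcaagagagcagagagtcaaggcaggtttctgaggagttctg
Rsad2 promoter, chr12:26456403-26456702, minus strand: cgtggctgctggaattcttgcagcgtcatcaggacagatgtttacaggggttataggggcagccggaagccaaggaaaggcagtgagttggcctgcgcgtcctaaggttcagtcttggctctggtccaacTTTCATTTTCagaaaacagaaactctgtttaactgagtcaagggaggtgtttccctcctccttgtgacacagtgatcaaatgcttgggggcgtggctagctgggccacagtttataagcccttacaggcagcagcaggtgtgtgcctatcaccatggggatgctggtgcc
Isg15 promoter, chr4:156200769-156201068, minus strand: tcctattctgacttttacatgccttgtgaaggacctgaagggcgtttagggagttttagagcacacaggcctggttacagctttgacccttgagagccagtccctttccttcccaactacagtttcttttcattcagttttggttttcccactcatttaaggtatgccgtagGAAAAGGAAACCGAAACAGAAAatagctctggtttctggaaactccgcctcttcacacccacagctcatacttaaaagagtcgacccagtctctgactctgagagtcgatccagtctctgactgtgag

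Counting overlapping matches separately, the Ifit3 window held 2 matches and the Ifit1 window 2, the Rsad2 window 1 and the Isg15 window 3. The element was present in 1131 of all 32851 promoter windows (3.44%), which is 1079 of the 27025 genes with a window (3.99%). Among the 25 genes that passed the interaction, 17 had a window in the RefSeq table and 6 of those held the element, namely Ifit1, Ifit3, Ifit3b, Isg15, Rsad2 and Stat2. All 6 are among the 8 passing list members with a window; of the 9 other passing genes with a window none held it. Over the whole interferon list 17 of 25 genes with a window held it. A match is a description of the letters in these windows and not a test of binding.

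Ifit3, Ifit1 and Ifit3b lie in 1 cluster on chromosome 19 and encode antiviral proteins of the IFIT family. Ifit3 (ENSMUSG00000074896, chr19:34583531-34588731, plus strand) stood at 48.7, 47.4 and 51.3 CPM in siprdx1+H2O2+FV, 32.5, 28.6 and 33.5 in siprdx1, 16.8, 15.2 and 16.9 in siNC+H2O2+FV and 25.1, 29.7 and 24.2 in siNC. The treated siprdx1 libraries are the highest and the treated siNC libraries the lowest of the 12, with no overlap, while the untreated groups overlap. The net change was 1.56-fold in siprdx1 and 0.620-fold in siNC, and the interaction was 1.33 ± 0.12 (adjusted p = 1.61e-06). No other gene had a smaller p. Ifit1 (ENSMUSG00000034459, chr19:34640871-34650009, plus strand), which recognises capped RNA that lacks a host mark, stood at 37.1, 36.4 and 38.2 CPM in siprdx1+H2O2+FV, 18.7, 18.9 and 18.1 in siprdx1, 17.7, 13.4 and 13.1 in siNC+H2O2+FV and 18.2, 20.0 and 18.7 in siNC. Treated siprdx1 libraries lie above and treated siNC libraries below the untreated ones, which overlap. It rose 2.00-fold in siprdx1 and fell in siNC (log2 net change -0.37, adjusted p = 0.00577), for an interaction of 1.38 ± 0.13 (adjusted p = 5.19e-06). Ifit3b (chr19:34607970-34613401, plus strand) stood at 11.8, 11.7 and 11.0 CPM in siprdx1+H2O2+FV, 7.96, 6.69 and 9.32 in siprdx1, 3.98, 3.55 and 3.72 in siNC+H2O2+FV and 6.89, 6.81 and 7.93 in siNC. It followed the order of Ifit3, with an interaction of 1.48 ± 0.18 (adjusted p = 0.000149). The longest transcripts of Ifit3 and Ifit3b are 97.8% identical over 1700 bp, so reads may have been divided between them and their values are not 2 separate observations.

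Rsad2 and Cmpk2 are neighbours on chromosome 12 on opposite strands. Rsad2 encodes viperin, a radical SAM enzyme that turns CTP into a chain-terminating nucleotide, and Cmpk2 a mitochondrial nucleotide kinase that feeds the CTP pool. Rsad2 (ENSMUSG00000020641, chr12:26442746-26456452, minus strand) stood at 30.1, 28.8 and 29.2 CPM in siprdx1+H2O2+FV, 12.2, 11.0 and 11.0 in siprdx1, 10.0, 9.01 and 7.89 in siNC+H2O2+FV and 11.0, 10.0 and 10.1 in siNC. The 3 treated siprdx1 libraries stand clear of the other 9, which lie in a narrow band. Its net change was 2.57-fold in siprdx1, whereas in siNC the log2 net change of -0.21 (adjusted p = 0.269) did not pass. The interaction of 1.58 ± 0.17 (adjusted p = 3.22e-05) was the largest among the genes that passed. Cmpk2 (chr12:26469204-26479837, plus strand) stood at 12.2, 10.8 and 11.6 CPM in siprdx1+H2O2+FV, 9.93, 9.94 and 9.88 in siprdx1, 6.16, 5.76 and 6.10 in siNC+H2O2+FV and 9.35, 10.6 and 9.36 in siNC. Here the low group sets the contrast, because the treated siNC libraries lie below all others. The log2 net change was 0.22 (adjusted p = 0.100) in siprdx1, where it did not pass, and -0.70 (adjusted p = 1.30e-05) in siNC. The interaction was 0.92 ± 0.14 (adjusted p = 0.00235).

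**Figure D2:**
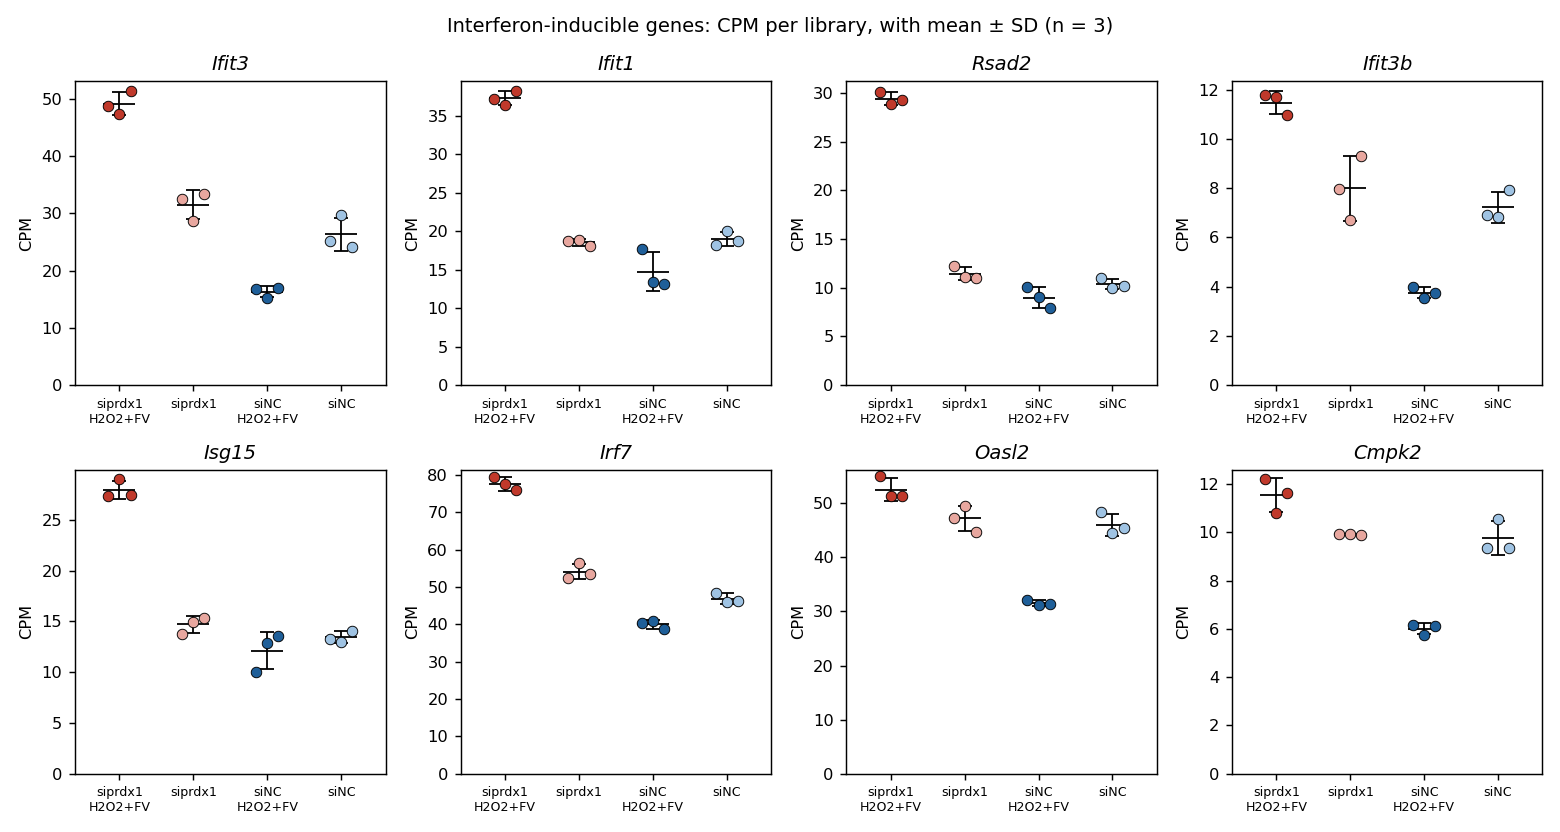
CPM per library (points) with the mean and SD of 3 libraries (bars) for 8 interferon-inducible genes, in siprdx1+H2O2+FV, siprdx1, siNC+H2O2+FV and siNC from left to right. In all 8 the treated siprdx1 libraries lie above every library of the other 3 groups. The gap is narrow in Cmpk2 (10.8 CPM against 10.6 CPM) and Oasl2 (51.3 CPM against 49.5 CPM) and wide in Rsad2, Ifit1 and Isg15.

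Isg15 encodes a ubiquitin-like protein that is attached to newly made proteins. Isg15 (ENSMUSG00000035692, chr4:156199424-156200818, minus strand) stood at 27.3, 29.0 and 27.5 CPM in siprdx1+H2O2+FV, 13.8, 15.0 and 15.4 in siprdx1, 10.0, 12.9 and 13.5 in siNC+H2O2+FV and 13.3, 13.0 and 14.1 in siNC. As with Rsad2, only the treated siprdx1 libraries are set apart among these 12, with a 1.90-fold net change in siprdx1 and an interaction of 1.07 ± 0.15 (adjusted p = 0.00106). The annotated locus AC151275.1, which was not tested, is 95.2% identical to 482 bp of its transcript. Oasl2 (ENSMUSG00000029561, chr5:114896936-114912234, plus strand), an OAS-like protein with ubiquitin-like domains, stood at 55.0, 51.3 and 51.3 CPM in siprdx1+H2O2+FV, 47.3, 49.5 and 44.8 in siprdx1, 32.2, 31.2 and 31.3 in siNC+H2O2+FV and 48.4, 44.5 and 45.3 in siNC. As with Cmpk2, treated siNC libraries lie below all others. The log2 net change of 0.15 (adjusted p = 0.0606) in siprdx1 did not pass (0.0365 with a replicate block in each arm), and that of -0.55 (adjusted p = 2.67e-07) in siNC did. The interaction was 0.70 ± 0.08 (adjusted p = 0.000113). Rtp4, an interferon-inducible chaperone of membrane receptors, averaged 20.1 ± 1.79 CPM in siprdx1+H2O2+FV, 18.8 ± 0.511 in siprdx1, 10.9 ± 1.67 in siNC+H2O2+FV and 18.2 ± 1.69 in siNC (SD, n = 3 each). Its interaction was 0.85 ± 0.14 (adjusted p = 0.00542), and 296 bp of its exons are shared with Gm45338 on the same strand.

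Transcription factors and sensors of the pathway were among the passing genes too. Irf7 (ENSMUSG00000025498, chr7:141262706-141266481, minus strand), the factor that drives type I interferon genes, stood at 79.3, 77.5 and 75.9 CPM in siprdx1+H2O2+FV, 52.5, 56.3 and 53.4 in siprdx1, 40.4, 40.9 and 38.7 in siNC+H2O2+FV and 48.4, 46.0 and 46.3 in siNC. The 4 groups do not overlap, and it is 1 of the 2 members that were also higher in siprdx1 than in siNC without treatment (log2 difference 0.21, adjusted p = 0.0460). That call was lost with a replicate block shared by both arms (adjusted p = 0.0510). The interaction was 0.75 ± 0.08 (adjusted p = 1.19e-05). Its exons overlap those of Phrf1 on the opposite strand by 45 bp, and whether the counting used strand is not given. Stat2, the STAT that is particular to type I and III interferon signalling, averaged 75.7 ± 5.43 CPM in siprdx1+H2O2+FV, 92.2 ± 2.52 in siprdx1, 56.1 ± 3.44 in siNC+H2O2+FV and 93.4 ± 1.61 in siNC (SD, n = 3 each). It fell in both arms, by less in siprdx1 (log2 net change -0.28, adjusted p = 0.000645) than in siNC (-0.73, adjusted p = 9.32e-10), with an interaction of 0.45 ± 0.08 (adjusted p = 0.0134). Dhx58, which encodes the RNA sensor LGP2, averaged 15.6 ± 0.739 CPM in siprdx1+H2O2+FV, 10.8 ± 1.37 in siprdx1, 10.2 ± 0.317 in siNC+H2O2+FV and 11.6 ± 0.353 in siNC (SD, n = 3 each) and had an interaction of 0.71 ± 0.13 (adjusted p = 0.0205). Iigp1, a GTPase that coats vacuoles of intracellular parasites, averaged 32.9 ± 1.44 CPM in siprdx1+H2O2+FV, 31.6 ± 2.23 in siprdx1, 18.3 ± 1.47 in siNC+H2O2+FV and 31.4 ± 2.90 in siNC (SD, n = 3 each), with an interaction of 0.84 ± 0.15 (adjusted p = 0.0185). The calls of Stat2, Dhx58 and Iigp1 were lost when some single libraries were left out. Stat2 did not pass without siprdx1+H2O2+FV replicate 2 (0.0678), without siprdx1 replicate 1 (0.0617), without siNC+H2O2+FV replicate 1 (0.0623) or without siNC replicate 3 (0.0538), with the adjusted p in brackets. Dhx58 did not pass without siprdx1+H2O2+FV replicate 1 (0.107) or replicate 3 (0.0627), without siprdx1 replicate 1 (0.105) or replicate 3 (0.0900), without siNC+H2O2+FV replicate 1 (0.0623) or replicate 2 (0.0505) or replicate 3 (0.0683) or without siNC replicate 1 (0.0615) or replicate 3 (0.0848), with the adjusted p in brackets. Dhx58 did not pass in a fit to the 12 libraries only either (adjusted p = 0.0587). Iigp1 did not pass without siprdx1+H2O2+FV replicate 1 (0.0694) or replicate 3 (0.0667), without siprdx1 replicate 1 (0.0751) or replicate 2 (0.0567), without siNC+H2O2+FV replicate 1 (0.0579) or replicate 3 (0.0683) or without siNC replicate 2 (0.0646), with the adjusted p in brackets. Dhx58 shares 141 bp of exon with Dhx58os on the opposite strand.

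Of the 24 list members that did not pass, 23 had a positive interaction. Mx1, a dynamin-like antiviral GTPase, had an interaction of 1.53 ± 0.33 (adjusted p = 0.0679), with 3.34, 3.44 and 2.99 CPM in siprdx1+H2O2+FV and 1.35, 1.03 and 1.51 CPM in siNC+H2O2+FV. Oas3, an RNA-activated synthetase, had 0.85 ± 0.18 (adjusted p = 0.0533). Usp18, the protease that removes ISG15 and damps the receptor, had 0.70 ± 0.14 (adjusted p = 0.0527). Ifit2, a further IFIT gene that fell in both arms, had 0.06 ± 0.13 (adjusted p = 0.943). Cxcl10 was the exception in sign. It stood at 19.8, 20.5 and 21.4 CPM in siprdx1+H2O2+FV, 7.65, 7.24 and 7.32 in siprdx1, 10.4, 7.39 and 11.0 in siNC+H2O2+FV and 2.92, 3.89 and 3.42 in siNC, with no overlap between siprdx1 and siNC within a treatment. Its interaction was -0.02 ± 0.17 (adjusted p = 0.987), with log2 net changes of 1.47 (adjusted p = 1.61e-09) in siprdx1 and 1.49 (adjusted p = 1.32e-08) in siNC. Its exons overlap those of Art3 on the opposite strand by 133 bp.

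Interferon transcripts themselves were almost absent. None of 21 interferon genes in the table passed the low-count filter, and 7 of them had any count, 18 counts in total over the 12 libraries. The counts by group were 7 in siprdx1+H2O2+FV, 5 in siprdx1, 0 in siNC+H2O2+FV and 6 in siNC, too few to compare. A set of 17 genes for receptors, kinases, sensors and regulators of the pathway was chosen after the values were seen. These genes leave out Irf7, Stat2 and Dhx58, described above, and include Ifih1, which is also on the interferon list. As a description, their interactions ran from -0.44 for Tlr4 to 0.26 for Ifih1, and none passed. Of the 17, 11 were positive, against 51% of all genes. At an unadjusted p below 0.05, 3 of them differed (Irf3, Ifih1 and Tlr4), against 6.21% of all genes. The receptor subunit Ifnar1 had an interaction of -0.09 ± 0.07 (adjusted p = 0.860) and the kinase Jak1 -0.08 ± 0.07 (adjusted p = 0.863).

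Markers of other cells are given beside these genes. The 19 macrophage markers, all tested, summed to 9476 to 9967 CPM in siprdx1+H2O2+FV, 8757 to 8968 CPM in siprdx1, 9313 to 9379 CPM in siNC+H2O2+FV and 9243 to 10132 CPM in siNC. Their median interaction was 0.13, with 17 of 19 positive, against 51% of all genes, and 1 passing (Marco). Their part in the interferon result was not tested. Lymphocyte markers were nearly absent, with 1 of 11 tested, at 11.4 to 13.8 CPM in siprdx1+H2O2+FV and 10.8 to 13.2 CPM in siNC, and erythrocyte markers had 0 of 7 tested.

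The H2O2-only libraries of the series divide the interaction into an H2O2 step (H2O2 alone minus untreated) and a fluvastatin step (H2O2 and fluvastatin minus H2O2 alone). The steps share the H2O2-only libraries and sum to the interaction, and this division was chosen after values were seen. For the interferon list the median difference between arms was 0.09 in the H2O2 step and 0.46 in the fluvastatin step. Over all genes these medians were 0.0055 and 0.0077. A high fluvastatin step was not particular to the interferon list. Immediate early genes had medians of -0.46 in the H2O2 step and 0.60 in the fluvastatin step, and macrophage markers -0.13 and 0.29. The summed level of the interferon list was 1180, 1143 and 1202 CPM in siprdx1+H2O2 and 1036, 1056 and 1029.6 CPM in siNC+H2O2. Set beside the sums above, both arms were higher after H2O2 than untreated, and with fluvastatin the siprdx1 libraries overlapped those of H2O2 alone while every siNC library lay below its H2O2-only group. Of the 24 higher genes, 15 passed upward in the fluvastatin step and 1, Scara5, in the H2O2 step, where 0.463% and 0.0426% of all genes did. Nothing is read from these 2 counts, because the genes were chosen by the sum of the steps. Rsad2 had 1.62 in the fluvastatin step and -0.05 in the H2O2 step, and Ifit3 had 1.36 and -0.02.

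**Figure D3:**
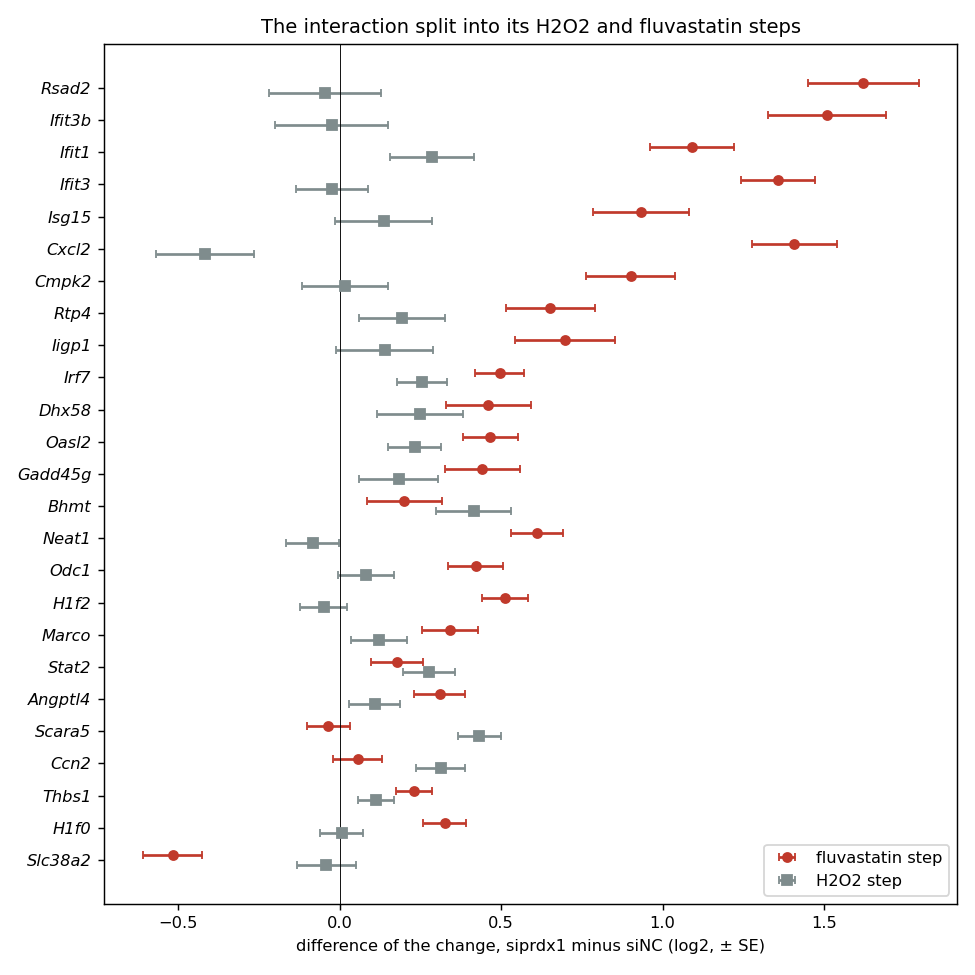
The difference between arms (siprdx1 minus siNC, log2, with its standard error) in the fluvastatin step (circles) and the H2O2 step (squares) for the 25 genes that passed the interaction test, ordered by interaction. In 20 of the 24 higher genes the fluvastatin step is the larger, and in Scara5, Ccn2, Stat2 and Bhmt it is the smaller. Nothing is read from this count either, because the genes were chosen by the sum of the steps.

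Outside the interferon group, 8 of the 24 higher genes rose in both arms and by more in siprdx1, namely Cxcl2, Odc1, Gadd45g, H1f2, H1f0, Thbs1, Ccn2 and Angptl4. Cxcl2 (ENSMUSG00000058427, chr5:90903871-90905938, plus strand), a chemokine that draws neutrophils, stood at 24.8, 23.3 and 26.1 CPM in siprdx1+H2O2+FV, 4.50, 4.44 and 4.69 in siprdx1, 18.2, 16.6 and 15.3 in siNC+H2O2+FV and 6.34, 6.47 and 5.44 in siNC. Treated siprdx1 libraries lie above treated siNC libraries, whereas untreated siprdx1 libraries lie below untreated siNC libraries. The net change was 5.45-fold in siprdx1 and 2.74-fold in siNC, with an interaction of 0.99 ± 0.14 (adjusted p = 0.00106). Its transcript is 90.7% identical to Cxcl3 over 550 bp. The untreated knockdown difference missed the threshold with a replicate block shared by both arms (adjusted p = 0.0628). Its steps were opposed, -0.42 for H2O2, which did not pass, and 1.41 for fluvastatin, which did (adjusted p = 6.87e-07).

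Odc1, the first enzyme of polyamine synthesis, stood at 408, 386 and 389 CPM in siprdx1+H2O2+FV, 84.3, 75.9 and 74.8 in siprdx1, 308, 282 and 292 in siNC+H2O2+FV and 89.5, 79.2 and 79.3 in siNC. Untreated groups overlap and treated groups do not, and the net change was 5.04-fold in siprdx1 and 3.55-fold in siNC, with an interaction of 0.50 ± 0.09 (adjusted p = 0.00662). Several annotated copies of Odc1, among them Gm9115 and Gm7993, are near-identical to it over 61.1% and 62.9% of its longest transcript, so part of its count may be theirs. Gadd45g, a stress-induced regulator of the cell cycle, stood at 213, 228 and 212 CPM in siprdx1+H2O2+FV, 30.4, 33.3 and 31.7 in siprdx1, 158, 163 and 192 in siNC+H2O2+FV and 39.8, 35.8 and 40.2 in siNC, with an interaction of 0.62 ± 0.12 (adjusted p = 0.0205). Treated siprdx1 libraries lie above treated siNC libraries, whereas untreated siprdx1 libraries lie below untreated siNC libraries. The log2 knockdown difference was 0.35 (adjusted p = 0.0113) after treatment and -0.28 (adjusted p = 0.128) without H2O2, where it did not pass. Gadd45g did not pass without siprdx1+H2O2+FV replicate 1 (0.0616) or replicate 2 (0.0792), without siprdx1 replicate 1 (0.105) or replicate 3 (0.0856), without siNC+H2O2+FV replicate 1 (0.0879) or replicate 2 (0.0955) or without siNC replicate 1 (0.0905) or replicate 3 (0.0985), with the adjusted p in brackets. H1f2 and H1f0 encode linker histones. H1f2 stood at 219.7, 223 and 227 CPM in siprdx1+H2O2+FV, 86.5, 89.2 and 89.8 in siprdx1, 167, 159 and 172 in siNC+H2O2+FV and 92.0, 87.6 and 92.1 in siNC and had an interaction of 0.46 ± 0.07 (adjusted p = 0.00244). Replication-dependent histone transcripts such as H1f2 mostly lack a poly(A) tail, and the libraries were made from poly(A) RNA. H1f0 averaged 196 ± 2.12 CPM in siprdx1+H2O2+FV, 128 ± 2.17 in siprdx1, 152 ± 3.54 in siNC+H2O2+FV and 124 ± 4.49 in siNC (SD, n = 3 each), with an interaction of 0.33 ± 0.07 (adjusted p = 0.0381). H1f0 did not pass without siprdx1+H2O2+FV replicate 1 (0.157) or replicate 2 (0.0813) or replicate 3 (0.0989), without siprdx1 replicate 1 (0.149) or replicate 2 (0.0533) or replicate 3 (0.148), without siNC+H2O2+FV replicate 1 (0.0879) or replicate 2 (0.147) or replicate 3 (0.0618) or without siNC replicate 1 (0.0978) or replicate 3 (0.179), with the adjusted p in brackets. It did not pass with library size alone (0.0658), without a low-count filter (0.107) or in a fit to the 12 libraries only (0.0882). Its exons share 163 bp with Gm49544 on the opposite strand.

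In 6 of the 24 higher genes, Cxcl2, Thbs1, Ccn2, Marco, Angptl4 and Bhmt, the knockdown difference without H2O2 passed downward, as it did for 1.67% of all genes. Choosing genes by a high interaction favours this direction, so the count is a description. Thbs1 (ENSMUSG00000040152, chr2:118111876-118127133, plus strand), which encodes the matricellular protein thrombospondin 1, stood at 3397, 3428 and 3299 CPM in siprdx1+H2O2+FV, 612, 622 and 609 in siprdx1, 3214, 3314 and 3251 in siNC+H2O2+FV and 747, 759 and 752 in siNC. Untreated siprdx1 libraries lie below untreated siNC libraries, and the treated groups overlap. The net change was 5.49-fold in siprdx1 and 4.33-fold in siNC, with an interaction of 0.34 ± 0.06 (adjusted p = 0.00534). Ccn2 (chr10:24595442-24598683, plus strand), a matricellular target of YAP and TGF-beta signalling, stood at 2175, 2281 and 2046 CPM in siprdx1+H2O2+FV, 984, 1104 and 1008 in siprdx1, 2294, 2423 and 2495 in siNC+H2O2+FV and 1469, 1474 and 1492 in siNC. The log2 knockdown difference was -0.15 (adjusted p = 0.134) after treatment, where it did not pass, and -0.52 (adjusted p = 2.20e-06) without H2O2. Its interaction of 0.37 ± 0.08 (adjusted p = 0.0480) lies near the threshold and did not pass with RLE size factors (0.0505), with library size alone (0.0705) or in a fit to the 12 libraries only (0.0965). Ccn2 did not pass without siprdx1+H2O2+FV replicate 1 (0.165) or replicate 2 (0.195), without siprdx1 replicate 1 (0.208) or replicate 3 (0.198), without siNC+H2O2+FV replicate 1 (0.195) or replicate 2 (0.113) or without siNC replicate 1 (0.103) or replicate 2 (0.0761) or replicate 3 (0.173), with the adjusted p in brackets. Its exons share 665 bp with Gm15270 on the opposite strand.

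Marco, a scavenger receptor of macrophages (chr1:120474538-120505024, minus strand), stood at 405, 383 and 371 CPM in siprdx1+H2O2+FV, 286, 309.9 and 295 in siprdx1, 514, 554 and 529 in siNC+H2O2+FV and 553, 612 and 524 in siNC. Both siprdx1 groups lie below both siNC groups, with log2 knockdown differences of -0.46 (adjusted p = 3.91e-05) after treatment and -0.92 (adjusted p = 3.03e-09) untreated. Its interaction was 0.46 ± 0.09 (adjusted p = 0.0205), and with offsets for GC content and length it did not pass (0.374). Marco did not pass without siprdx1+H2O2+FV replicate 1 (0.121) or replicate 2 (0.0506), without siprdx1 replicate 1 (0.102) or replicate 3 (0.0799), without siNC+H2O2+FV replicate 1 (0.0879) or replicate 3 (0.0560) or without siNC replicate 2 (0.0585), with the adjusted p in brackets. Macrophage markers as a group are given above, and their part in the Marco result was not tested. Scara5, a ferritin receptor, averaged 123 ± 3.94 CPM in siprdx1+H2O2+FV, 107 ± 0.920 in siprdx1, 97.4 ± 2.40 in siNC+H2O2+FV and 111 ± 1.78 in siNC (SD, n = 3 each). It rose in siprdx1 (log2 net change 0.21, adjusted p = 0.00164) and fell in siNC (-0.19, adjusted p = 0.00469), with an interaction of 0.40 ± 0.07 (adjusted p = 0.00572). The H2O2 step gave 0.43, which passed, and the fluvastatin step -0.04, which did not.

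Angptl4, an inhibitor of lipoprotein lipase, stood at 129, 129 and 125 CPM in siprdx1+H2O2+FV, 76.1, 84.7 and 77.2 in siprdx1, 109, 118 and 121 in siNC+H2O2+FV and 96.4, 94.4 and 97.8 in siNC. Treated siprdx1 libraries lie above treated siNC libraries, and untreated siprdx1 libraries lie below untreated siNC libraries. The log2 knockdown difference was 0.14 (adjusted p = 0.181) after treatment, where it did not pass, and -0.28 (adjusted p = 0.00625) without H2O2. The interaction was 0.42 ± 0.08 (adjusted p = 0.0205). Angptl4 did not pass without siprdx1+H2O2+FV replicate 1 (0.0980) or replicate 2 (0.0702), without siprdx1 replicate 1 (0.105) or replicate 3 (0.0975), without siNC+H2O2+FV replicate 1 (0.0879) or replicate 2 (0.0505) or without siNC replicate 1 (0.0605) or replicate 3 (0.0848), with the adjusted p in brackets. Bhmt, a methyltransferase of the methionine cycle, stood at 27.2, 23.6 and 25.6 CPM in siprdx1+H2O2+FV, 19.6, 17.4 and 20.5 in siprdx1, 23.5, 21.6 and 22.3 in siNC+H2O2+FV and 26.8, 24.5 and 25.9 in siNC. The untreated siprdx1 libraries are the lowest of the 12. Its log2 knockdown difference was 0.18 (adjusted p = 0.257) after treatment, where it did not pass, and -0.43 (adjusted p = 0.00411) without H2O2. The interaction was 0.62 ± 0.12 (adjusted p = 0.0215). Bhmt did not pass without siprdx1+H2O2+FV replicate 1 (0.151) or replicate 3 (0.0667), without siprdx1 replicate 1 (0.0617) or replicate 2 (0.0932), without siNC+H2O2+FV replicate 2 (0.104) or replicate 3 (0.0626) or without siNC replicate 1 (0.0979) or replicate 3 (0.0848), with the adjusted p in brackets. Bhmt is near-identical to Gm5096 over 545 bp.

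**Figure D4:**
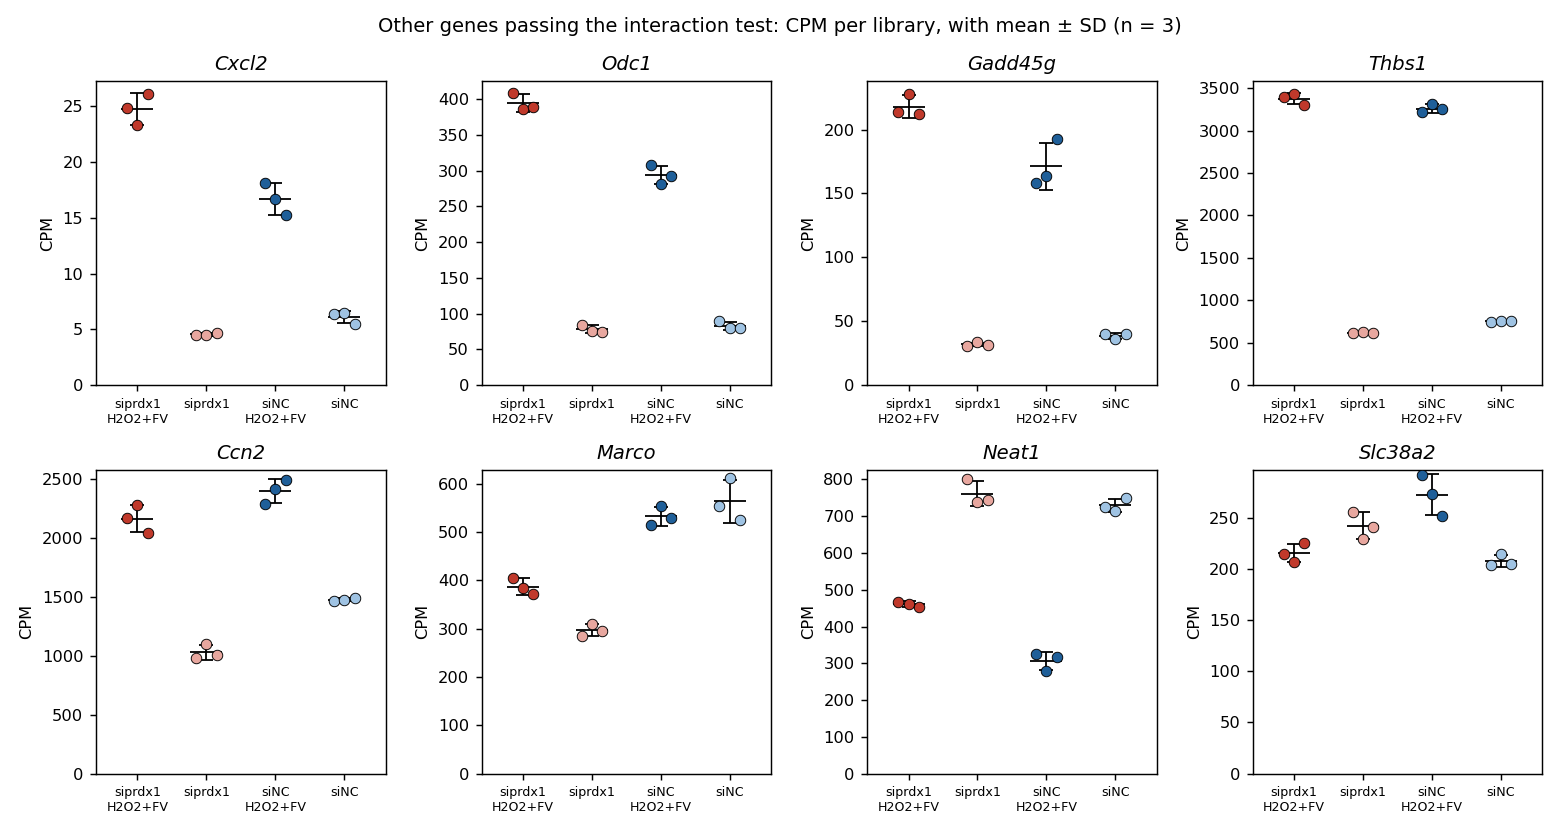
CPM per library (points) with the mean and SD of 3 libraries (bars) for 8 passing genes outside the interferon group, in siprdx1+H2O2+FV, siprdx1, siNC+H2O2+FV and siNC from left to right. Cxcl2, Odc1 and Gadd45g are higher in treated siprdx1 than in treated siNC libraries. Thbs1 is lower in siprdx1 than in siNC in the untreated libraries, and Ccn2 in both the untreated and the treated libraries. Slc38a2 has its highest libraries in treated siNC.

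Neat1 is a long noncoding RNA, the scaffold of nuclear paraspeckles, and stood at 467, 463 and 453 CPM in siprdx1+H2O2+FV, 800.4, 739 and 745 in siprdx1, 325, 278 and 318 in siNC+H2O2+FV and 726, 715 and 749.5 in siNC (chr19:5824708-5845478, minus strand). It fell in both arms, to a higher level in siprdx1, and the treated groups do not overlap while the untreated ones do. The net change was 0.606-fold in siprdx1 and 0.420-fold in siNC, with an interaction of 0.53 ± 0.08 (adjusted p = 0.00244). Slc38a2 (ENSMUSG00000022462, chr15:96687392-96699730, minus strand), the one gene with a lower interaction that passed, stood at 214, 207 and 225 CPM in siprdx1+H2O2+FV, 255, 229 and 241 in siprdx1, 291, 273 and 251 in siNC+H2O2+FV and 204, 214 and 204 in siNC. Of the treated siNC libraries 2 are the highest of the 12, and 2 of the untreated siNC libraries are the lowest. It rose in siNC (log2 net change 0.39, adjusted p = 7.98e-05), while the log2 net change of -0.17 (adjusted p = 0.0631) in siprdx1 did not pass; it passed with a replicate block (0.0484 shared by both arms, 0.00441 with one in each arm). The interaction was -0.56 ± 0.09 (adjusted p = 0.00542) and passed under all 12 leave-outs, from -0.61 to -0.51. The next genes on the lower side did not pass. These 3 passed with DESeq2 and with a replicate block in each arm. They were the choline kinase gene Chka with -0.34 ± 0.08 (adjusted p = 0.103), the hormone gene Stc1 with -0.29 ± 0.07 (adjusted p = 0.189) and the kinase gene Map3k1 with -0.35 ± 0.09 (adjusted p = 0.195).

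Genes at the centre of the treatment did not pass the interaction. Of 28 genes followed whatever their values, 25 did not pass, 22 of these passed the net change in siprdx1 and 22 in siNC (21 in both), against 25.5% and 23% of all genes, and their interactions ran from -0.22 to 0.32 with standard errors of 0.06 to 0.23. At an unadjusted p below 0.05, 4 of the 25 differed between arms (Txnrd1, Srf, Eln and Acta2), against 6.21% of all genes. Among the antioxidant genes that NRF2 drives, Srxn1 had an interaction of 0.06 ± 0.07 (adjusted p = 0.891) beside log2 net changes of 1.96 in siprdx1 and 1.90 in siNC. Hmox1 had 0.00 ± 0.07 (adjusted p = 0.998), Txnrd1 -0.16 ± 0.06 (adjusted p = 0.724) and Gclc 0.13 ± 0.08 (adjusted p = 0.822). Insig1, a sterol-regulated brake on cholesterol synthesis, rose in both arms and had -0.07 ± 0.08 (adjusted p = 0.901). The early genes Fos, Egr1 and Nr4a1 rose by more than 3 on the log2 scale in each arm. Fos had an interaction of 0.10 ± 0.10 (adjusted p = 0.879) and Nr4a1 of 0.07 ± 0.10 (adjusted p = 0.916). The arms did differ in each step for Fos, by -1.15 for H2O2 (adjusted p = 1.00e-06) and 1.25 for fluvastatin (adjusted p = 1.04e-08). Egr1, with an interaction of 0.16 ± 0.08 (adjusted p = 0.817), had -0.69 (adjusted p = 4.81e-05) and 0.85 (adjusted p = 7.57e-07). These opposed steps share the H2O2-only libraries and nearly cancel in the sum.

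Among the steroid genes of this set neither Star nor Cyp11a1 passed. Star, the carrier that brings cholesterol into mitochondria, stood at 455, 449 and 469 CPM in siprdx1+H2O2+FV, 187, 189 and 193 in siprdx1, 492, 529.6 and 485 in siNC+H2O2+FV and 194, 203 and 188 in siNC. It rose 2.41-fold in siprdx1 and 2.57-fold in siNC, and the interaction was -0.09 ± 0.07 (adjusted p = 0.858). Cyp11a1, which makes pregnenolone, had -0.06 ± 0.06 (adjusted p = 0.868). Eln, which encodes elastin, was lower in siprdx1 than in siNC, with log2 differences of -0.91 (adjusted p = 3.08e-09) after treatment and -1.11 (adjusted p = 1.45e-10) without. Its interaction was 0.19 ± 0.09 (adjusted p = 0.797). Other genes of that set were Atf4, Asns, Trib3, Ptgs2, Fosb, Egr3, Rhob, Srf, Acta2 and Fn1. Their interactions ran from -0.22 for Ptgs2 to 0.32 for Srf, and each was within 3 standard errors of 0. Srf passed with a replicate block in each siRNA arm (adjusted p = 0.0390).

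Set against the interferon list, the other 24 gene lists and 8 cell marker lists held few passing genes. Passing members were Cxcl2 among NF-kappaB targets, Ccn2 among YAP/TEAD targets, Thbs1 among extracellular matrix genes and Marco among macrophage markers, 1 each. The medians of these lists lay between -0.07 for mitochondrially encoded transcripts and 0.14 for SRF/MRTF and actin genes, in lists with at least 5 tested members. The median of the mitochondrially encoded transcripts changed sign among the alternatives, from -0.13 to 0.02. In the SRF/MRTF and actin list all 21 members were positive, from 0.01 to 0.32, against 51% of all genes positive. None passed, and 9 were higher at an unadjusted p below 0.05, against 3.21% of all genes. NRF2 targets had a median of 0.11 with 20 of 25 positive, and redox enzymes other than Prdx1 a median of 0.12 with 22 of 26 positive, both against the same 51%; none passed in either. Over all genes the interaction moved with GC content, from a median of -0.11 among the genes with the lowest GC content (the first of 10 equal bins) to 0.11 among those with the highest, which is the size of these medians. With offsets for GC content and length the medians were 0.12 for SRF/MRTF and actin genes, 0.07 for NRF2 targets and 0.07 for redox enzymes. The median GC content was 47.5% for the interferon list and 49.5% for all genes.

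**Figure D5:**
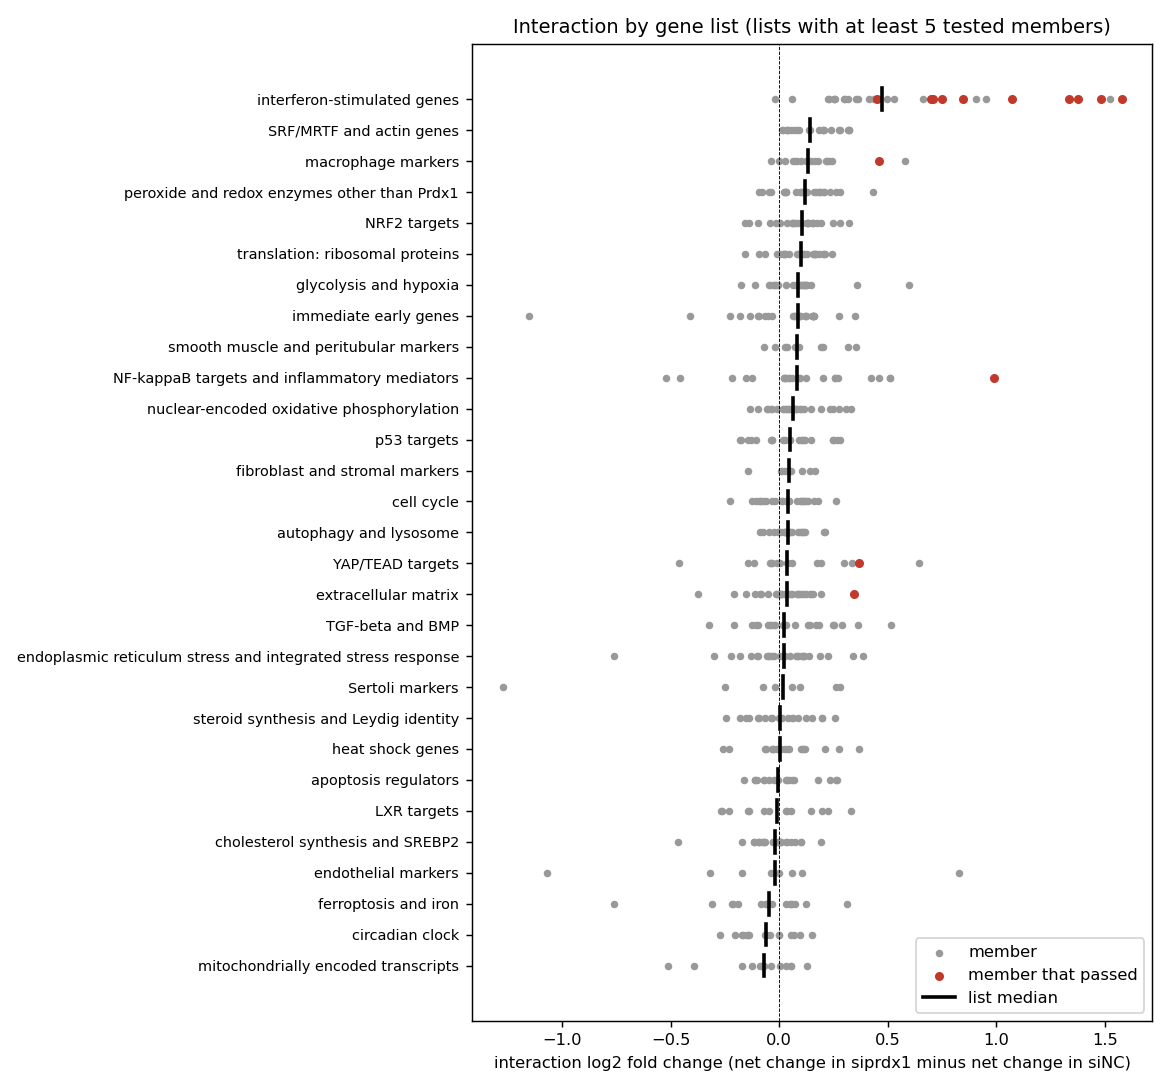
Interaction (log2 fold change, siprdx1 minus siNC) of each tested member of all but 1 of the gene lists and cell marker lists with at least 5 tested members, with members that passed in red and the list median as a black bar. The interferon list has a median of 0.47 and 10 passing members; the other medians shown lie between -0.07 and 0.14.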

How the data were processed

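The deposited file is a count table made by the authors, with unnormalised read counts for 55487 genes in 18 libraries. Poly(A) RNA was made into libraries with a stranded kit and sequenced as paired reads, per the labels' protocols. HISAT2, HTSeq and the mm10 build (GRCm38) are named without versions in the submitters' processing notes; the annotation and the strand setting of the counting are not given in the sources used here. Library totals, from 15201530 to 23455026 counts in the 12 libraries compared, limit the precision of genes with few counts.

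From the deposited counts, edgeR 4.0.16 in R 4.3.3 fitted 6 group means to all 18 libraries (TMM scaling, filterByExpr with a minimum count of 10, 16432 genes kept, glmQLFit with robust estimation, 12 residual degrees of freedom), and p-values of its quasi-likelihood test were adjusted by Benjamini-Hochberg over all genes tested in each contrast. The biological coefficient of variation was 7.01%. For principal components, CPM was taken to log2 with a prior count of 2. Symbols are those of the deposited table, and coordinates come from GENCODE vM21 on GRCm38, in which 55141 IDs were found. Near-identical transcripts were sought with blastn 2.17.0+ (at least 90% identity over at least 100 bp). RefSeq promoter windows were searched on both strands for GAAANNGAAA (interferon), TGACNNNGC (the antioxidant element's core), TGATGNAA (ATF4), TGACGTCA (cAMP) and the serum response element. The last 4 were in 12.4%, 3.97%, 1.79% and 1.63% of all windows, and in 5, 1, 0 and 0 of the 17 windows of passing genes.

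The experiment, the members and the gene lists were chosen with earlier results of these data known. The rule for named genes took the 12 smallest p in each direction among passing genes (the 4 smallest where fewer than 4 passed), up to 4 passing members of each list and a fixed set of 28 genes. Some genes of the fixed set, and 1 gene list, are counted but not reported by name here. The remaining passing genes, the interferon members that did not pass and the pathway genes were named after their values were seen. Replicate pairs within the 4 groups differed by more than counting noise, so none was a copy. Same-numbered libraries of siprdx1+H2O2+FV and siprdx1 deviated together in all 3 pairs (correlations of 0.142, 0.370 and 0.134), so by a limit of 0.1 the numbers pair these 2 groups; this comes from the data, not the labels. For siNC+H2O2+FV and siNC 2 of 3 pairs met it (0.0334, 0.199 and 0.213), and no other pair of groups met it in all 3. Alternatives were RLE size factors, library size alone, no low-count filter, a stricter one (1 CPM in 3 libraries), a fit to the 12 libraries only, a replicate block, DESeq2 1.42.0, limma voom 3.58.1, a minimum absolute log2 fold change of 1, each library left out in turn and, added after the data were seen, offsets for GC content and transcript length and a replicate block in each siRNA arm. The steps were tested on simulated data.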

Additional observations from a re-analysis of the deposited data

Results flagged for a closer look

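All 25 genes that passed the interaction are listed here because a test of the difference itself separated the net change in siprdx1 from that in siNC (edgeR's quasi-likelihood test, Benjamini-Hochberg adjusted). Each value is the net change in siprdx1 minus the net change in siNC on the log2 scale. Among interferon-inducible genes it was 1.58 for Rsad2, 1.48 for Ifit3b, 1.38 for Ifit1, 1.33 for Ifit3, 1.07 for Isg15, 0.92 for Cmpk2, 0.85 for Rtp4, 0.84 for Iigp1, 0.75 for Irf7, 0.71 for Dhx58, 0.70 for Oasl2 and 0.45 for Stat2. Among genes that rose in both arms it was 0.99 for Cxcl2, 0.62 for Gadd45g, 0.50 for Odc1, 0.46 for H1f2, 0.42 for Angptl4, 0.37 for Ccn2, 0.34 for Thbs1 and 0.33 for H1f0. It was 0.62 for Bhmt, 0.53 for Neat1, 0.46 for Marco and 0.40 for Scara5. Slc38a2 stood alone on the lower side at -0.56. Groups of 3 libraries were not tested for a single library far from the others.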

How the results depend on the processing

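The replicate block shared by both arms called 25 genes, the same 25 as without it, and changed no named call of the interaction; the counts were 4371 and 3955 for the net change in siprdx1 and siNC, and 704 and 424 for the knockdown with and without treatment. Among named genes it added the net change of Slc38a2 (0.0484) and Fn1 (0.0389) in siprdx1 and of Bhmt (0.0318) in siNC, and the treated knockdown difference of Fosb (0.0289) and Hmox1 (0.0455). A block in each arm, chosen after seeing the data because only the siprdx1 groups were paired, called 87 genes (72 higher, 15 lower, 18 interferon members). It gave 5619 and 5081 for the net change. In that fit a knockdown difference refers to replicate 1 of each arm, so no knockdown result is given from it. RLE size factors, library size alone, the stricter filter, a fit to the 12 libraries and limma voom gave 22 to 28 genes. The interaction count was 56 without a low-count filter (43 higher, 13 lower), 46 with DESeq2 (40 higher, 6 lower), 80 with GC and length offsets (69 higher, 11 lower, 21 of them interferon members) and 5 at an absolute log2 fold change of at least 1 (5 higher, 0 lower, 5 interferon members). Over the 12 leave-outs it was 16 to 26, with 15 to 25 higher, 1 lower and 8 to 11 interferon members. The knockdown counts were 1101 after treatment and 881 without H2O2 with the offsets, and 34 and 15 at a log2 of at least 1, with 11 interferon members after treatment. Over the leave-outs they were 320 to 719 and 204 to 376. The net change counts were 714 in siprdx1 and 633 in siNC at a log2 of at least 1, and 3342 to 4367 and 3013 to 3867 over the leave-outs. Prdx1 fell by 1.46 to 1.52 on the log2 scale over the leave-outs. Library size alone shifted the median net change of all genes to -0.13 in siprdx1 and -0.12 in siNC.

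Of the 25 passing genes 16 passed in all 22 settings with no minimum fold change, and the other 9 are named with their values in the report. Chka passed with DESeq2 (adjusted p = 0.00908) and with the offsets (0.00637), and Stc1 (0.0181) and Map3k1 (0.0497) with DESeq2; with a block in each arm all 3 passed (0.00728, 0.0180 and 0.0466). Among the named genes, those whose interaction turned sign were 8 that did not pass; of 30 list medians, 11 crossed 0 in some setting, and that of the interferon list did not (0.45 to 0.54). Hmox1 had -0.0039 with RLE, -0.018 with library size alone, -8.7e-05 with the stricter filter, -0.0040 with DESeq2 and -0.0818 with the offsets. Rhob had -0.0085 with library size alone and -0.10 with the offsets. With the offsets Srxn1 had -0.0063, Nr4a1 -0.0373 and Atf4 -0.0805. Leaving out a library gave -0.0236 to 0.27 for Egr3, -0.0143 to 0.10 for Prdx1, -0.0632 to 0.0749 for Rhob, -0.18 to 0.10 for Cxcl10 and -0.0371 to 0.0347 for Hmox1. The cause of these shifts was not tested. Genes with few counts, such as the interferon genes themselves, cannot be compared at this depth.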
